A study of Mus musculus with 16 samples.

Results

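The genes described here are 9 transcription factors and chromatin regulators known for hematopoietic stem cell (HSC) self-renewal: Hlf, Mecom, Meis1, Erg, Hoxa9, Prdm16, Mllt3, Runx1 and Etv6. They were found by symbol among the 27998 genes of single-cell count matrices, and each symbol matched 1 row. The matrices came from lineage-depleted bone marrow of 16 C57BL/6 mice, 4 in each of 4 groups, sequenced as 8 droplet libraries that each pooled 2 hashtagged mice of 1 group. WT mice carried floxed Tet2 without Cre (Tet2fl/fl), and Tet2-KO mice (Vav-Cre-Tet2-/-) lost Tet2 through Vav-Cre, which is active throughout blood formation. Each genotype received either vehicle or 500 ng of IL1β per mouse per day for 5 weeks. Cre was present only in Tet2-KO mice, so a Cre effect and the loss of Tet2 cannot be told apart. All mice were 6 to 12 weeks old by the labels, and every pool held 1 group, so that no comparison of groups could be made within a pool.

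Self-renewing HSCs keep a network of transcription factors active that is switched off, factor by factor, as progenitors commit to a lineage. Runx1 and the ETS family factor Erg bind together at stem cell enhancers, and Etv6 (TEL) is another ETS family factor. The homeodomain factors Hoxa9 and Meis1 act as partners, and Hlf is a PAR bZIP factor whose expression marks HSCs. Mecom (Evi1) and Prdm16 are related PR domain zinc finger proteins needed to maintain HSCs, and Mllt3 (AF9) is a chromatin reader that keeps transcription of stem cell genes going. Several of them are also known for other lineages, such as Runx1 and Meis1 in megakaryocytes, and Hoxa9 in myeloid progenitors and lymphoid precursors. IL1β is an inflammatory cytokine that drives HSCs towards myeloid output, and TET2 is a dioxygenase that removes DNA methylation.

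By RefSeq on GRCm38.p6, the members lie at chr11:90336535-90390917 (Hlf), chr3:29951296-30509759 (Mecom), chr11:18880428-19019651 (Meis1), chr16:95359169-95586600 (Erg), chr6:52223097-52227370 (Hoxa9), chr4:154316122-154637360 (Prdm16), chr4:87769925-88033407 (Mllt3), chr16:92601466-92826074 (Runx1) and chr6:134035700-134270158 (Etv6). Etv6 is on the plus strand and the other members are on the minus strand. The promoters of 4 members on which the results turn are printed from RefSeq, 300 bases each around the transcription start, read 5′ to 3′ on the gene's strand. Both strands were searched for the RUNX letters TGTGGT, the ETS letters CCGGAAGT, the MEIS letters TGACAG, the E-box letters CAGCTG, the GATA factor letters AGATAA, the PAR bZIP letters TTACGTAA and an NF-kB motif, and capitals mark every match. A match on the opposite strand is printed as its reverse complement, and matches in these windows did not overlap.
Runx1, distal start, chr16:92826025-92826324, minus strand: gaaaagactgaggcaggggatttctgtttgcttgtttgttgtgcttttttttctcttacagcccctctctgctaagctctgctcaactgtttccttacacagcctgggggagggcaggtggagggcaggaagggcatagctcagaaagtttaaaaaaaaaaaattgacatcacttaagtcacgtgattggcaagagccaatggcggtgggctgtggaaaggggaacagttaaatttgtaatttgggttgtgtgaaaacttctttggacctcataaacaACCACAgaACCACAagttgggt
Meis1, chr11:19018920-19019219, minus strand: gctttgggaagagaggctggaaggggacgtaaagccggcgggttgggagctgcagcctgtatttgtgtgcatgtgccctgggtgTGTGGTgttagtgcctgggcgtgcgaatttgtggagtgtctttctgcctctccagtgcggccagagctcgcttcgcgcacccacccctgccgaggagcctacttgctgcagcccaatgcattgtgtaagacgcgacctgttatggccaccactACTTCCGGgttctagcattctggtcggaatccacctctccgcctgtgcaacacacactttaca
Hlf, chr11:90390868-90391167, minus strand: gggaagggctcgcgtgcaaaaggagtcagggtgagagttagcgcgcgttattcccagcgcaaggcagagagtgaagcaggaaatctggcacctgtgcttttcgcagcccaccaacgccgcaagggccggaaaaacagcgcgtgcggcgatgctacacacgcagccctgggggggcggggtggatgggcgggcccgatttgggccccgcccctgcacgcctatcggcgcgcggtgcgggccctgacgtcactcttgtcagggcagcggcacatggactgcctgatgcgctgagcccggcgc
Hoxa9, chr6:52227321-52227620, minus strand: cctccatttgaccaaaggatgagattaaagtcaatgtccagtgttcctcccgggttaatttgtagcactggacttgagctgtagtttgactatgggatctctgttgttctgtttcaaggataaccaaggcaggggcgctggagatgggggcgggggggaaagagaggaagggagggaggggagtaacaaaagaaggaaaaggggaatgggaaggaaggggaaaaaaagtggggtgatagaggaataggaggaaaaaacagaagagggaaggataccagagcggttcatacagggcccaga
The distal Runx1 window held 2 RUNX matches close together near its 3′ end, and the Meis1 window held 1 RUNX and 1 ETS match. Over 32851 RefSeq windows of the same length, 16.8% held the RUNX letters, 3.89% the ETS, 11.2% the GATA factor, 19.2% the MEIS, 0.119% the PAR bZIP, 0.411% the NF-kB and 16.3% the E-box letters. Of the 14 windows listed for the members, 3 held the MEIS letters (of Erg, Mecom and Mllt3), 2 the RUNX letters, and 1 each the ETS, GATA factor (Erg) and E-box (Mllt3) letters. A HOX and PBX motif was also searched, and 3.22% of all windows and 0 of these 14 held it. A match describes the letters in the window only.

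After the filters on genes and mitochondrial reads, 94917 cells remained, with a median of 4436 to 7363 UMIs per cell in the 8 libraries. HTODemux assigned 57896 cells (61.0%) to a mouse, and the share with no hashtag call was 14.3% to 49.8% per library. No pair of libraries shared more than 0.512% of the barcodes of the smaller one. Cells were sorted in silico into gates on raw UMIs of marker genes, none of which was a member: an HSC-like gate, which needed UMIs of at least 3 of 10 stem cell markers such as Procr, Slamf1 and Fgd5, 8 progenitor gates, and a neutrophil gate read for comparison. The HSC-like gate held 1143 assigned cells, 11 to 157 per mouse, with 28129 to 570433 UMIs per mouse. WT vehicle mouse 2, WT IL1β mice 2 and 4 and Tet2-KO IL1β mouse 1 each had fewer than 20 HSC-like cells, and calls that are lost without these mice are given with the value without them. Of 8 endothelial markers, Cdh5 and Stab2 had no UMI in this gate and Cldn5 and Kdr none by its definition. Pecam1 (72.2 CPM over the pooled gate), Tie1 (37.5 CPM), Emcn (8.96 CPM) and Plvap (1.12 CPM) were read, and the part of endothelial cells in the members' levels was not tested. Tet2 itself was read at 27.6 to 40.4 UMIs per 1000000 (CPM) in WT vehicle mice and 28.9 to 40.3 CPM in Tet2-KO vehicle mice over all gates, and since these libraries read 3′ ends, Tet2 UMIs need not come from the deleted part and do not check the genotype.

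All members were read in the HSC-like gate, at levels that varied between mice to different degrees. Over the 16 mice, Meis1 had a median of 403.5 CPM (lowest 276.1, highest 517.2), which was the steadiest relative to its mean (410.8 ± 54.2 CPM, SD, n = 16). Hlf had a median of 427.5 CPM but ran from 127.7 in WT IL1β mouse 2 to 1019 in Tet2-KO IL1β mouse 1, both mice with few HSC-like cells. Runx1 had a median of 308.1 CPM (177.8 to 476.8), and Etv6 a median of 223.5 CPM (161.8 to 326.2). Mecom, Erg and Hoxa9 were read at medians of 107.1, 104.2 and 83.0 CPM, over ranges of 25.1 to 165.7, 50.2 to 203.8 and 31.9 to 175.7 CPM. Mllt3 had a median of 88.4 CPM and no UMI in WT vehicle mouse 2 and WT IL1β mouse 2, where a count of 0 allows up to 106.7 and 95.8 CPM. Prdm16 was the sparsest member with 70 UMIs in all, a median of 21.4 CPM, and no UMI in WT IL1β mice 2 and 4 (up to 95.8 and 75.3 CPM); it did not pass the filter on low counts in this gate and was not tested there. Such limits cover counting error only.

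**Figure D1:**
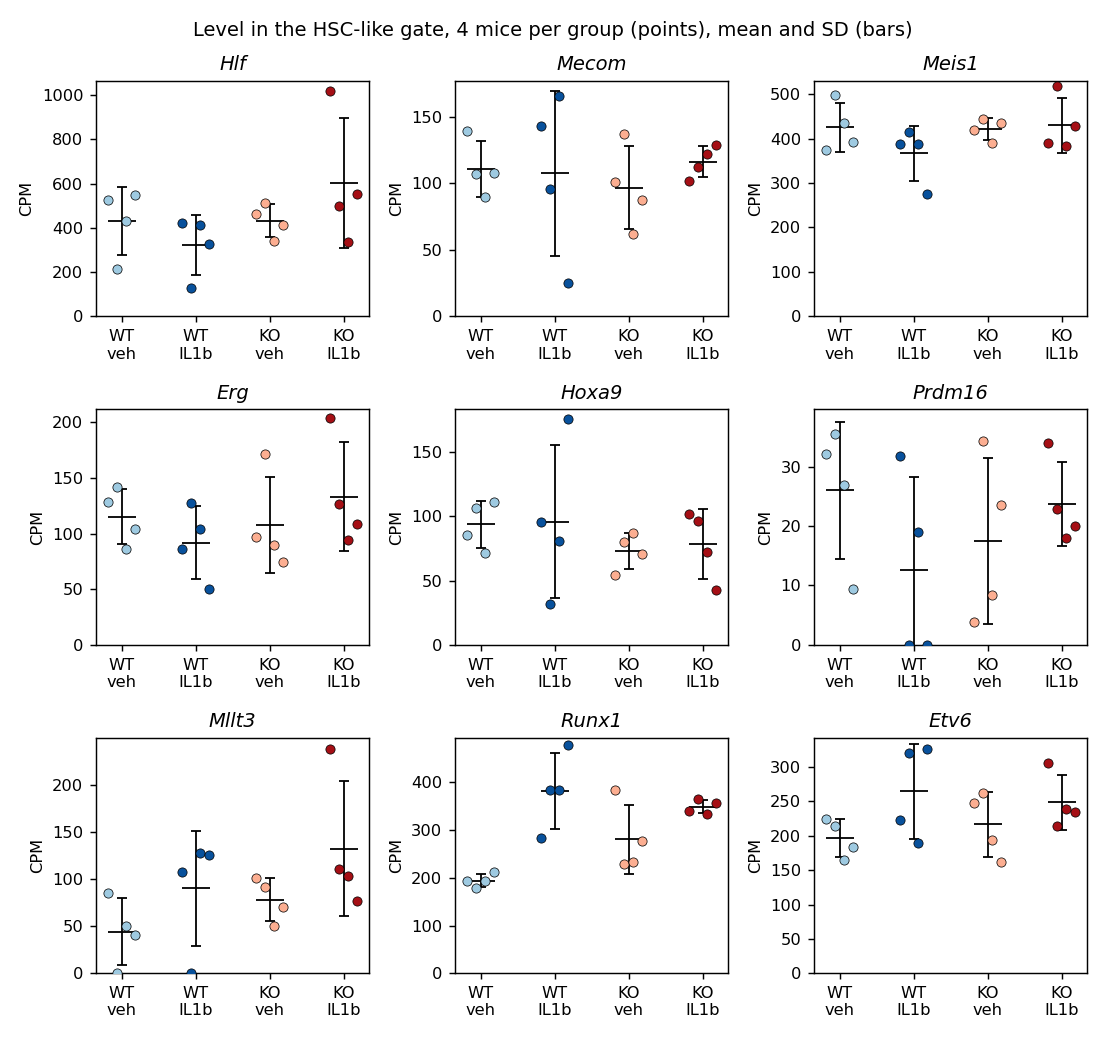
Level of each member in the HSC-like gate, in CPM on a vertical axis that starts at 0 and differs between panels; each point is 1 of 4 mice per group, and bars give the mean and SD. Runx1 in the 4 WT vehicle mice sits between 177.8 and 211.8 CPM, below all WT IL1β mice (282.7 to 476.8 CPM).

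At equal depth, with every cell thinned to 3000 UMIs and shallower cells left out, 498 of the 1143 HSC-like cells could be compared. Meis1 was seen in 64.9% of them, Runx1 in 53.6%, Hlf in 53.2% and Etv6 in 43.8%. Erg, Mecom, Hoxa9, Mllt3 and Prdm16 were seen in 22.3%, 20.9%, 18.5%, 15.7% and 4.02%. The unthinned shares over all 1143 cells were 68.2%, 56.2%, 60.3% and 44.7% for the first 4 genes. In the neutrophil gate, set on Ngp and read for comparison, thinned shares were 0.0941% for Mecom, 1.88% for Meis1 and Mllt3, 1.13% for Hoxa9 and 4.42% for Hlf. Its median was 2946 to 6521.5 UMIs per cell and mouse against 2374.5 to 4094.5 in the HSC-like gate. Runx1 (22.6%), Erg (9.22%) and Etv6 (8.28%) were seen more often in neutrophils, and values of these 3 genes there were not taken as background. Neither was Hlf, since fewer thinned monocyte-primed (1.38%) and CFU-E cells (1.68%) held an Hlf UMI.

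The first question was how far each factor fell from the HSC-like gate into each progenitor gate. Of 68 pairs of member and gate that passed the filter, 57 were called (edgeR quasi-likelihood test paired within the mouse, Benjamini-Hochberg over all genes, adjusted p under 0.05), where 49.5% of all gene and gate pairs were called. Of the calls 56 were lower in the progenitors and 1 was higher, beside 23.1% of all pairs called lower, and the median change was -1.63 on the log2 scale. Mecom and Meis1 were lower in all 8 gates, Hlf, Erg and Etv6 in 7 of 8, Hoxa9 in 6, Mllt3 in 5, and Runx1 in 4. Prdm16 passed the filter in 4 gates and was lower in each. The filter read both gates of a fit together, so a member could pass through its HSC-like counts alone. Prdm16 was at most 9.95 CPM in these 4 progenitor gates, beside a median of 21.4 CPM in the HSC-like gate. Mecom was at most 5.34 CPM in the granulocyte, monocyte-primed and CFU-E gates, beside 107.1 CPM. In the CFU-E gate Hlf, Meis1, Erg and Hoxa9 were at most 12.3, 15.2, 4.97 and 20.2 CPM, beside 427.5, 403.5, 104.2 and 83.0 CPM. Hlf was at most 19.5 CPM in the monocyte-primed gate and Hoxa9 at most 20.8 CPM in the megakaryocyte gate. The filter favoured a lower call in such pairs, so these calls, counted in the 56, are no separate support for a fall. The gates differ in depth, at a median of 2340 to 3949.5 UMIs per cell in the 12 mice used for the multipotent gate and 4820 to 10101 in the granulocyte gate, and scaling by total UMIs in place of TMM moved the median of all genes by as much as -0.42 in the granulocyte gradient. The members' direction held under that scaling in every call.

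**Figure D2:**
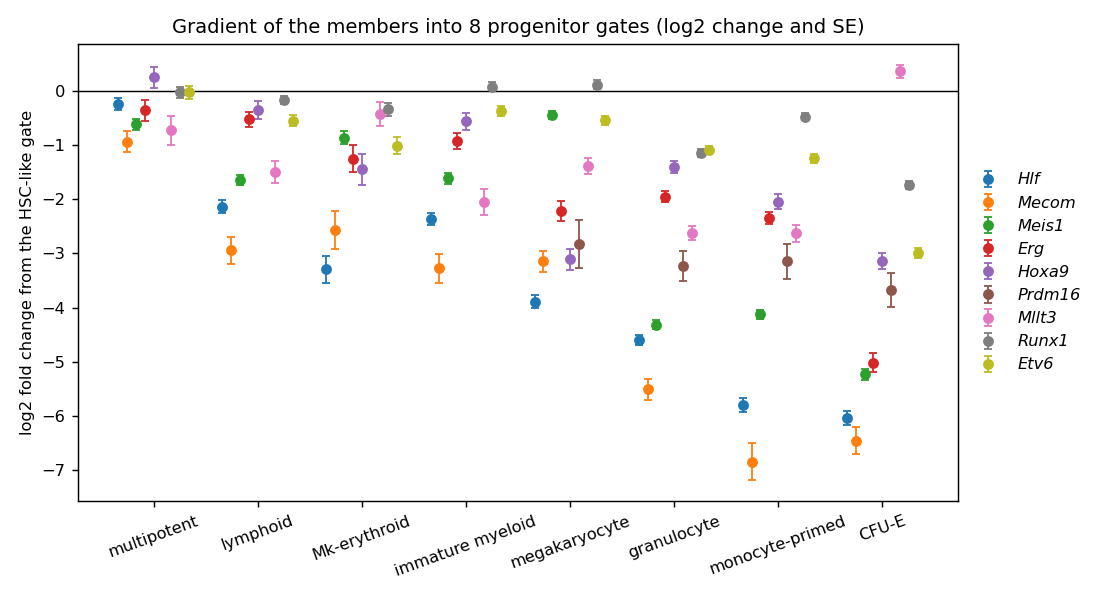
Log2 fold change of each member from the HSC-like gate into each of 8 progenitor gates, paired within mice, with SE (bars); the horizontal line marks no change. Points of Mecom and Hlf drop furthest, to -6.84 and -6.04, while Runx1 lies between -0.33 and 0.11 in 5 gates and Mllt3 lies above the line in the CFU-E gate (0.37). The lowest Mecom point is that of the monocyte-primed gate, where 6 of 16 mice held no Mecom UMI.

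The Flt3+ Cd34+ multipotent gate had the smallest median change of the 8 gates (-0.29). In it 2 of 8 members tested were called lower, against 2.86% of all genes tested: Mecom by -0.94 ± 0.20 (log2 ± SE, adjusted p = 0.00024) and Meis1 by -0.61 ± 0.10 (adjusted p = 8.3e-06). Mecom and Meis1 were lower than in the HSC-like gate of the same mouse in 12 of 12 mice. With at least 2 stem cell markers in place of 3, the Mecom change was -0.53 (adjusted p = 0.078). Hlf was at 369.7 ± 124 CPM (SD, n = 12), 82.8% of its HSC-like mean, and its change of -0.23 ± 0.11 did not pass (adjusted p = 0.27). Hoxa9 averaged 83.5 CPM against 85.2 CPM, and was lower in 6 mice and higher in 6.

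In the lymphoid gate (Dntt+ Flt3+), 6 of 8 members tested were lower (background 11.7%) and Runx1 and Hoxa9 were not called, the lower members being led by Mecom at -2.94 ± 0.25 and Hlf at -2.14 ± 0.12. Hoxa9, known for its part in early lymphoid cells, changed by -0.34 ± 0.16 (adjusted p = 0.11), and Runx1 by -0.17 ± 0.08 (adjusted p = 0.11). Erg stood at 64.4% of its HSC-like mean (-0.52 ± 0.14, adjusted p = 0.0025), the call being lost when 4 stem cell markers were required of HSC-like cells.

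Members were lower in every myeloid gate, by amounts that differed between gates. In the immature myeloid gate (Mpo+ Cd34+, no Ms4a3, Irf8 or Klf1), 7 of 8 members tested were lower against 15.1% of all genes, with Hlf at 19.5%, Meis1 at 30.0% and Mecom at 11.4% of their HSC-like means, while Runx1 stood at 93.8% (0.08 ± 0.08, adjusted p = 0.53). In the granulocyte progenitor gate (Elane+ Ms4a3+) all 9 were lower against 30% of genes, with the limit of the filter given above for Prdm16 and Mecom. Mecom changed there by -5.51 ± 0.19, Hlf by -4.60 ± 0.09 and Meis1 by -4.31 ± 0.08, and Hoxa9, Runx1 and Etv6 by -1.41 ± 0.11, -1.15 ± 0.07 and -1.09 ± 0.08. In the monocyte-primed gate (Mpo+ Irf8+) all 9 were again lower against 29.7% of genes, with the same limit for Prdm16, Mecom and Hlf. Mecom was at -6.84 ± 0.34, Hlf at -5.80 ± 0.13 and Runx1 at -0.47 ± 0.07. The Mecom value rested on 31 UMIs over 16 mice, of which 6 held none, so its size is set near the floor. With at least 4 stem cell markers the Runx1 change there was -0.10 (adjusted p = 0.55). The Hlf level in the granulocyte gate, 14.4 ± 5.7 CPM, did not differ from that in neutrophils (13.9 ± 5.5 CPM, n = 15) by more than the spread over mice. Hlf was seen in 4.43% against 4.42% of thinned cells in these gates, and at lower levels of 7.73 ± 4.59 CPM in the monocyte-primed and 5.17 ± 2.83 CPM in the CFU-E gate. Hoxa9 stood above its neutrophil level, at 24.9 ± 10.3 CPM against 3.53 ± 2.86 CPM in neutrophils, and was seen in 7.13% against 1.13% of thinned cells. Meis1 was seen in 4.49% against 1.88% and Mecom in 0.644% against 0.0941% of thinned cells in these gates.

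Members differed among themselves in the megakaryocyte and erythroid gates. In the megakaryocyte progenitor gate (Pf4+ Itga2b+), 8 of 9 members were lower (background 24.7%), yet Meis1 kept 67.6% of its HSC-like mean, at 277.5 ± 29.4 CPM (n = 16), and Runx1, a factor of platelet formation, kept 98.5% (0.11 ± 0.08, adjusted p = 0.24). Hoxa9 changed in that gate by -3.11 ± 0.19, beside -1.41 in the granulocyte and -2.04 in the monocyte-primed gate. The limit of the filter given above held in the megakaryocyte gate for Hoxa9 and Prdm16. In the megakaryocyte-erythroid gate (Gata1+ Gata2+), 7 of 8 were lower (background 11.5%). Mllt3 was not (-0.42 ± 0.22, adjusted p = 0.16), and the Runx1 call (-0.33 ± 0.12, adjusted p = 0.038) was lost in 8 of 16 fits that left out 1 mouse and in 7 of 13 other alternatives. Leaving out the mice with few HSC-like cells was among these (-0.32, adjusted p = 0.058). In the CFU-E gate (Klf1+ Gata1+ Car1+), 8 of 9 were lower (background 35.5%), with Mecom, Hlf, Meis1 and Erg changed by -6.45, -6.04, -5.23 and -5.01. The limit of the filter given above held there for these members, Hoxa9 and Prdm16. Mllt3, which is known to act in erythroid and megakaryocyte cells, was the only call in the other direction, 0.37 ± 0.12 higher (adjusted p = 0.0035), where 39.4% of all genes were called higher.

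That Mllt3 call depended on the scaling and on the HSC-like gate. Its mean level was 84.2 ± 11.0 CPM in the CFU-E gate and 86.3 ± 56.3 CPM in the HSC-like gate, lower in 8 mice and higher in 8. Scaled by total UMIs the change was 0.06 (adjusted p = 0.68), in DESeq2 it was 0.25 (adjusted p = 0.15), and with at least 4 stem cell markers it was 0.08 (adjusted p = 0.71). In WT vehicle mice alone the change was 1.00, and in Tet2-KO IL1β mice it was -0.04.

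Ordered by mean level, the series of gates differed between members. All 9 had their highest mean in the HSC-like gate. The next gate was the multipotent one for Hlf, Mecom, Hoxa9 and Etv6, the megakaryocyte gate for Meis1 and Runx1, the lymphoid gate for Erg, the megakaryocyte-erythroid gate for Prdm16 and the CFU-E gate for Mllt3. Hlf ran HSC-like, multipotent, lymphoid, immature myeloid, megakaryocyte-erythroid, megakaryocyte, granulocyte, monocyte-primed and CFU-E, and the means of its HSC-like and multipotent gates differed by less than the larger SD of the pair, as did those of neighbours in the series from the lymphoid to the megakaryocyte gate. Mecom dropped beyond the SD at each of its first steps, from 107.7 to 56.6 CPM in the multipotent and 22.2 CPM in the megakaryocyte-erythroid gate. For Meis1 the megakaryocyte, multipotent and megakaryocyte-erythroid gates (277.5, 264.3 and 239.4 CPM) came behind the HSC-like gate and were not separated from each other. Runx1 had no step beyond the SD over its first 6 gates, from 301.1 CPM in the HSC-like to 238.3 CPM in the megakaryocyte-erythroid gate, and then dropped to 169.3 CPM in the monocyte-primed and 96.6 CPM in the granulocyte gate.

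Across 150 pairs of mouse and gate, which share libraries and depth, the members' levels followed each other unevenly (Pearson r of log2(CPM + 1), given as a description). Runx1 and Etv6 were the most alike (r = 0.87), followed by Meis1 and Etv6 and by Hlf and Mecom (both r = 0.82). Erg and Mllt3 were the least alike (r = -0.14). Among 11088 other genes, the most like Hlf were Akap13 (0.86) and Pnrc1 (0.83), the most like Mecom were Myct1 (0.84) and Spns2 (0.83), and the most like Meis1 were Adgrg1 (0.91) and Ctla2a (0.90). Erg was most like Elmo1 and Ptpre (both 0.82), Hoxa9 most like Gm19590 (0.74) and Cd27 (0.70), and Mllt3 most like Aldh1a1 (0.70) and Tmem9 (0.69). Runx1 was most like Arid1b and AI504432 (both 0.87), Etv6 most like H2-K1 (0.88) and Arid1b (0.86), and Prdm16 followed no gene closely (Maged1 and Phxr4, both 0.57).

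Other genes of the network were counted from lists of partners and paralogs, other stem cell regulators, and lineage factors. In the granulocyte gradient 30% of all genes were called lower and 34.2% higher. Of 24 other stem cell regulators tested from HSC-like to granulocyte cells, 22 were lower and 1, Myb, which is known for progenitor proliferation, was higher (0.74 ± 0.07). Their median change was -2.61 beside 0.04 for all 9215 genes. A gene of any list could again pass the filter through its HSC-like counts alone, and 19 of these regulators passed within the granulocyte gate. The filter favoured a lower call for such genes, so the count and the median are no separate support for a fall. The homeobox gene Nkx2-3 changed by -6.68 ± 0.46, the GATA factor Gata2 by -3.27 ± 0.10 and the immediate early gene Egr1 by -4.27 ± 0.09. Of 22 partners and paralogs, 14 were lower and 4 higher (median -0.36): the homeobox gene Hoxa10 changed by -5.27 ± 0.49, while the elongation factor gene Aff1 was higher by 1.05 ± 0.15. Of 10 lineage factors, 5 were higher and 5 lower; Cebpe, needed for neutrophil granules, was higher by 6.47 ± 0.55 and Gfi1 by 3.25 ± 0.23, and Irf8 was lower because the gate excluded it.

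The next question was whether IL1β changed these gradients. In WT mice 1 of 68 pairs was called, where 0.0654% of all gene and gate pairs were: the drop of Hlf into the granulocyte gate was smaller with IL1β by 1.12 ± 0.26 (adjusted p = 0.027), at -3.71 against -4.83 with vehicle. In Tet2-KO mice no pair was called (background 0.174%), and the Hlf change there was 0.49 ± 0.23 (adjusted p = 0.70). The difference between the genotypes was called for no pair (background 0.0243%). At an unadjusted p under 0.05, 14 of 68 pairs passed in WT, 7 in Tet2-KO and 3 for the difference by edgeR, where 5.62%, 6.09% and 3.54% of all gene and gate pairs did. All gates were compared with the same HSC-like counts of each mouse, so neither these pairs nor those of the gradient count are independent. DESeq2 called 0 in all 3 comparisons. Hlf in granulocyte progenitors overlapped its level in neutrophils, and the WT call was lost without any of 7 single mice (WT vehicle mice 1, 3 or 4, WT IL1β mice 2, 3 or 4, or Tet2-KO IL1β mouse 1), where adjusted p reached 0.21. It was also lost with RLE factors (the scaling of DESeq2), at least 2 or at least 4 stem cell markers in place of 3, or a cap on committed marker UMIs that scaled with depth (0.94 to 1.26, adjusted p up to 0.20), and without the mice with few HSC-like cells (0.80, adjusted p = 0.32).

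Within the HSC-like gate, Runx1 was the only member of 8 tested that IL1β changed in WT mice (background 4.19%). Runx1 was at 192.6, 177.8, 193.9 and 211.8 CPM in the 4 WT vehicle mice and at 282.7, 383.1, 383.5 and 476.8 CPM in the 4 WT IL1β mice. The groups did not overlap, and the rise was 0.73 ± 0.20 on the log2 scale, 1.66-fold (95% interval 0.32 to 1.14 on the log2 scale, adjusted p = 0.030). At equal depth, Runx1 was seen in 42.1% of 114 WT vehicle cells and 61.3% of 80 WT IL1β cells (49.6% of 226 and 57.0% of 207 before thinning). These shares pool cells over mice, with 12, 2, 52 and 48 thinned cells from WT vehicle and 46, 4, 25 and 5 from WT IL1β mice. Few mice supplied most of the cells, and the shares are a description only. The call was lost on leaving out any WT vehicle mouse, WT IL1β mouse 2, 3 or 4, or Tet2-KO IL1β mouse 4 (0.65 to 0.88, adjusted p up to 0.17), and on leaving out mice with fewer than 20 HSC-like cells (0.62, adjusted p = 0.16). It was also lost with at least 4 stem cell markers (0.41, adjusted p = 0.70), without the filter on low counts (0.69, adjusted p = 0.18) and with pools as replicates (0.75, adjusted p = 0.091).

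In Tet2-KO mice Runx1 was at 383.4, 228.1, 232.5 and 276.5 CPM with vehicle and at 339.6, 364.6, 333.6 and 356.5 CPM with IL1β. Tet2-KO vehicle mouse 1 was above every Tet2-KO IL1β mouse, and the change of 0.24 ± 0.17 did not pass (adjusted p = 0.42), as for every other member in Tet2-KO (0 of 8 called, background 6.66%). Tet2-KO vehicle mice were all above WT vehicle mice for Runx1 (0.55 ± 0.19), but with adjusted p = 0.90 this did not pass either. The difference between the IL1β changes of the genotypes was -0.49 ± 0.26 for Runx1 (adjusted p = 1.00), and so was not shown. Summed neutrophil markers in the HSC-like gate, 6 genes led by S100a8 and S100a9, ran from 197 to 728 CPM in WT vehicle and 275 to 6053 CPM in WT IL1β mice. In Tet2-KO mice they ran from 131 to 2474 CPM with vehicle and 416 to 8570 CPM with IL1β. Summed megakaryocyte markers, 5 genes led by the integrin gene Itga2b, moved with Runx1: they ran from 152 to 213 CPM in WT vehicle and 237 to 351 CPM in WT IL1β mice, without overlap. In Tet2-KO mice they overlapped, at 189 to 269 CPM with vehicle and 170 to 338 CPM with IL1β, and Ppbp was at 0 in both IL1β groups. Summed endothelial, erythroblast and lymphoid markers overlapped between vehicle and IL1β in both genotypes. The part of these markers in the Runx1 values was not tested.

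The other members showed no called change in the HSC-like gate, with or without the mice with few cells. Mllt3 was at 85.6, 0, 50.7 and 41.1 CPM in WT vehicle mice and at 108.0, 0, 127.8 and 125.5 CPM in WT IL1β mice, and its change of 1.03 ± 0.39 did not pass (adjusted p = 0.12). Hlf was at 524.3, 213.3, 432.6 and 550.1 CPM in WT vehicle mice and at 422.4, 127.7, 411.9 and 326.2 CPM in WT IL1β mice (-0.46 ± 0.28, adjusted p = 0.39). In Tet2-KO mice Hlf was at 464.7, 513.2, 341.7 and 411.3 CPM with vehicle and at 1019, 497.9, 338.1 and 553.3 CPM with IL1β (0.34 ± 0.24, adjusted p = 0.44). Without the mice with few cells the Hlf changes were -0.35 in WT and 0.08 in Tet2-KO, and the Mllt3 changes 1.07 and 0.33. The 2 genotypes' Hlf values with IL1β overlapped, and the difference between the IL1β changes was 0.80 ± 0.37 (unadjusted p = 0.037, adjusted p = 1.00). For Meis1 the 95% interval of the IL1β change was -0.62 to 0.11 in WT and -0.33 to 0.31 in Tet2-KO, for Hoxa9 -0.70 to 0.55 and -0.58 to 0.53, and for Erg -0.84 to 0.33 and -0.22 to 0.71. Mecom (0.27 ± 0.28 and 0.36 ± 0.24) and Etv6 (0.21 ± 0.22 and 0.11 ± 0.18) did not pass either.

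**Figure D3:**
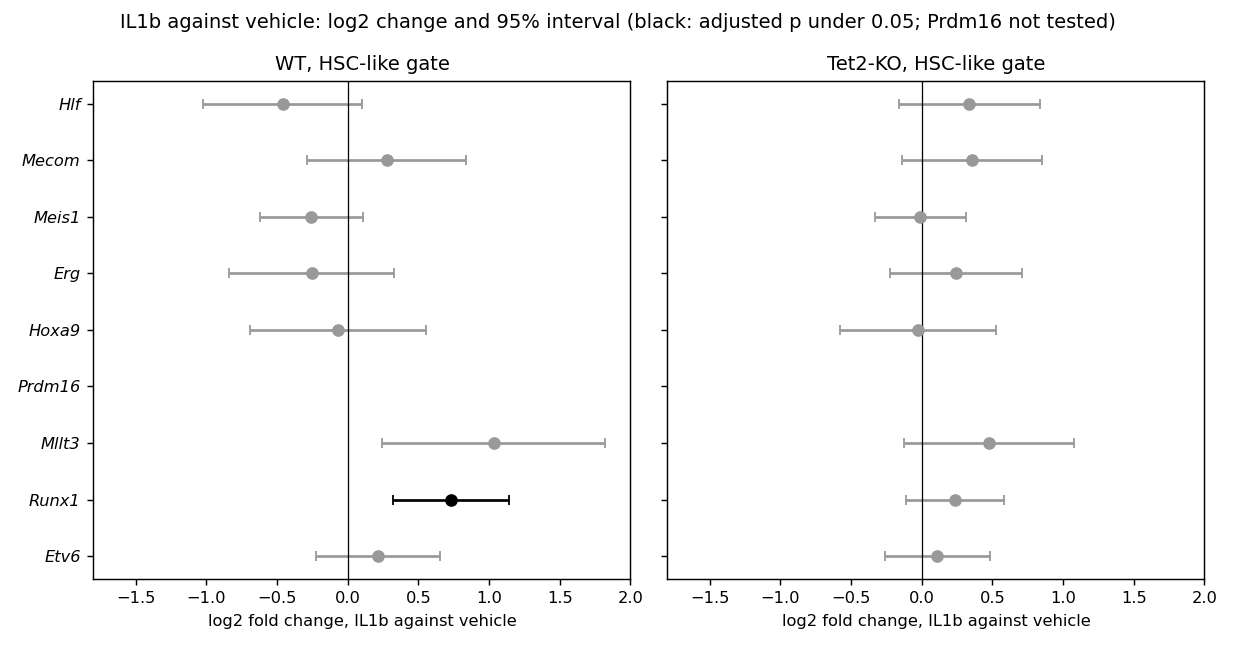
Log2 fold change of each member in the HSC-like gate with IL1β against vehicle in WT (left) and Tet2-KO mice (right), with the 95% interval; black marks an adjusted p under 0.05. Runx1 in WT (0.73) is the only black point, and Prdm16 was not tested.

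No gene passed between genotypes in the HSC-like gate. Tet2-KO against WT called 0 of 8 members with vehicle (background 0%), 0 with IL1β (background 0%) and 0 for the interaction (background 0%), by edgeR, and DESeq2 called 0 members as well. Over the 5104 genes tested, 234, 284 and 158 (4.58%, 5.56% and 3.1%) passed an unadjusted p under 0.05, among them 1 member in each: Runx1 with vehicle, and Hlf with IL1β (0.70 ± 0.27, adjusted p = 0.82) and for the interaction.

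Of 19 other stem cell regulators tested in the HSC-like gate, Gata2 and Zfp36l1 were called for IL1β in 1 genotype each. That is 1 of 19 in WT and 1 of 19 in Tet2-KO, near the 4.19% and 6.66% of all genes called. Gata2, a zinc finger factor that works beside Runx1 and Erg, was at 224.7, 177.8, 235.7 and 189.7 CPM in WT vehicle mice and at 384.3, 957.7, 364.6 and 426.6 CPM in WT IL1β mice, a rise of 0.99 ± 0.22 (adjusted p = 0.0066) with no overlap. The highest value came from 30 UMIs in WT IL1β mouse 2, which had 11 cells. As given above for Runx1, summed megakaryocyte markers rose without overlap in the same WT mice (152 to 213 against 237 to 351 CPM), and their part in the Gata2 values was not tested. The call was lost without the mice with few HSC-like cells (0.71, adjusted p = 0.073), with at least 4 stem cell markers (0.68, adjusted p = 0.34), with pools as replicates, with mice assigned by the ratio of hashtag counts and without WT vehicle mouse 4 (0.79 to 0.92, adjusted p up to 0.080). In Tet2-KO mice Gata2 was at 216.7 to 252.9 CPM with vehicle and 315.6 to 442.1 CPM with IL1β (0.55 ± 0.20, adjusted p = 0.084), and this change passed in 5 of 13 alternatives, leaving out the mice with few cells among them (0.57, adjusted p = 0.047). Zfp36l1, an RNA-binding protein that speeds mRNA decay, rose in Tet2-KO mice by 1.37 ± 0.30 (adjusted p = 0.0046), from 39.2 to 123.9 CPM to 148.8 to 254.7 CPM, and in WT its change was 0.99 ± 0.37 (adjusted p = 0.12). The Tet2-KO call held without the mice with few cells (1.32, adjusted p = 0.015) and was lost with at least 4 stem cell markers (0.90, adjusted p = 0.21) and without Tet2-KO vehicle mouse 3 (1.07, adjusted p = 0.057). None of 12 partners and paralogs tested was called in either genotype, and their median changes were 0.37 in WT and 0.23 in Tet2-KO beside 0.02 for all genes in each.

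Below the stem cell, the members were compared within each progenitor gate in 51 pairs of member and gate. IL1β was called for 4 pairs in WT (background 14.4%) and 5 in Tet2-KO (background 17.8%), genotype for 1 pair with vehicle (background 0.0271%) and 1 with IL1β (background 0.0871%), and the interaction for none (background 0%). At an unadjusted p under 0.05 the interaction passed in 3 of 51 pairs, near the 3.6% of all gene and gate pairs that did. Hoxa9 accounted for 5 of these 11 calls. DESeq2 made 9 calls in the same pairs. The 11 calls became 19 with total UMI scaling, 7 with a block by mouse number or without the cells with the most UMIs, 4 with pools as replicates and 3 without the mice with few HSC-like cells.

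Hoxa9 was lower in Tet2-KO granulocyte progenitors than in WT under both treatments. It was at 34.3, 23.7, 22.0 and 28.8 CPM in WT vehicle mice and at 16.7, 11.5, 11.6 and 10.1 CPM in Tet2-KO vehicle mice. With IL1β it was at 33.9, 37.1, 44.2 and 37.4 CPM in WT and at 21.2, 26.4, 20.9 and 17.8 CPM in Tet2-KO. At both treatments every Tet2-KO mouse was below every WT mouse, by -1.07 ± 0.17 with vehicle (2.10-fold lower, adjusted p = 0.0080) and by -0.76 ± 0.13 with IL1β (1.69-fold lower, adjusted p = 0.017). Few genes differed by genotype in this gate, 9 of 10400 with vehicle (0.0865%) and 36 with IL1β (0.346%). The vehicle call was lost without WT vehicle mouse 1 or 4 (adjusted p up to 0.062) and the IL1β call without WT IL1β mouse 2 or 3 or Tet2-KO IL1β mouse 1 or 4 (up to 0.076), and both were lost with 2 pools per group as replicates (0.093 and 0.28) and without the mice with few HSC-like cells (0.064 and 0.31), where the change itself remained -1.10 and -0.76.

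IL1β raised Hoxa9 within Tet2-KO granulocyte progenitors by 0.59 ± 0.16 (adjusted p = 0.0057), a comparison in which 36.5% of all genes were called. There was again no overlap between the 4 vehicle and 4 IL1β mice, and this call held in all 16 fits that left out 1 mouse and in 13 other alternatives. With vehicle the sum of the 10 stem cell gate markers in granulocyte progenitors was 83.5 to 98.5 CPM in WT and 64.9 to 84.5 CPM in Tet2-KO mice, and with IL1β it was 88.9 to 131 and 86.5 to 120 CPM, so that it rose without overlap in Tet2-KO. Other markers also moved with IL1β in this gate. The sum of the lymphoid marker list was nearly all Nkg7 here (95.9% or more), and so says little of the other genes of that list. This sum was lower without overlap, at 1164 to 1228 against 725 to 894 CPM in WT and 1081 to 1284 against 815 to 1034 CPM in Tet2-KO. Summed erythroblast markers ran from 97.7 to 500 CPM with vehicle and 14.2 to 70.9 CPM with IL1β in Tet2-KO mice and overlapped in WT (198 to 252 and 44.4 to 258 CPM). Summed endothelial markers, led by Pecam1, were higher without overlap, at 27.3 to 31.3 against 34.1 to 37.9 CPM in WT and 25.8 to 30.1 against 30.8 to 42.6 CPM in Tet2-KO, while megakaryocyte markers overlapped. The part of these markers in the Hoxa9, Hlf, Mecom and Prdm16 values of this gate was not tested. Summed neutrophil markers of these cells overlapped between the genotypes, at 4154 to 7594 CPM in WT and 3752 to 13165 CPM in Tet2-KO vehicle mice.

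The neighbouring homeobox gene Hoxa7, a partner list member singled out after its values were seen, was also lower in Tet2-KO granulocyte progenitors, by -0.90 ± 0.17 with vehicle (adjusted p = 0.042) and -0.63 ± 0.14 with IL1β (adjusted p = 0.049). Hoxa5 did not pass between genotypes (-0.57 ± 0.38 and -0.61 ± 0.23), and IL1β raised it in both, by 1.00 ± 0.31 in WT and 0.96 ± 0.31 in Tet2-KO (adjusted p = 0.017 and 0.016). These counts do not resolve reads that could be shared among transcripts of the Hoxa cluster.

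In the CFU-E gate, IL1β raised Hoxa9 in WT mice, where 18% of all genes were called. Each of the summed marker lists of other cells overlapped between vehicle and IL1β in this gate. It was at 4.88, 6.81, 8.61 and 7.68 CPM with vehicle and at 20.2, 13.2, 13.8 and 13.6 CPM with IL1β, without overlap, a rise of 1.04 ± 0.24 (adjusted p = 0.0051) that held in the same 16 and 13 fits. In Tet2-KO mice Hoxa9 was at 5.97, 3.34, 2.69 and 3.14 CPM with vehicle and at 9.36, 8.44, 5.03 and 6.29 CPM with IL1β (0.75 ± 0.29, adjusted p = 0.079). The genotype differences of -0.86 ± 0.29 with vehicle and -1.15 ± 0.24 with IL1β did not pass over all genes (adjusted p = 1.00 and 0.13). Hoxa9 levels in the neutrophil gate ran from 0 to 8.17 CPM, a range that overlapped the vehicle values of the CFU-E gate.

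In the lymphoid gate of Tet2-KO mice Hoxa9 fell with IL1β. These mice were at 91.3, 122.6, 72.1 and 100.4 CPM with vehicle and at 42.2, 47.5, 24.5 and 32.5 CPM with IL1β, a fall of 1.25 on the log2 scale (SE 0.38, adjusted p = 0.045) without overlap, where 3.86% of all genes were called. Summed lymphoid markers, led by the gate gene Dntt, were also lower without overlap in these mice (1314 to 1695 against 807 to 1211 CPM), and their part was not tested. WT mice were at 77.1, 125.0, 90.1 and 85.2 CPM with vehicle and at 72.9, 0, 48.5 and 0 CPM with IL1β, also without overlap. The WT change was -1.01 ± 0.37 (adjusted p = 0.095), and the interaction was not called in this gate. The 2 WT IL1β mice at 0 had 10 and 11 cells and allow up to 59.0 and 64.0 CPM. The Tet2-KO call was lost in 12 of 16 fits that left out 1 mouse, with adjusted p up to 0.12 and a change of -1.44 to -1.15. It was also lost in DESeq2, with the block by mouse number, with total UMI scaling and without the cells with the most UMIs (-1.32 to -1.17, adjusted p up to 0.10).

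**Figure D4:**
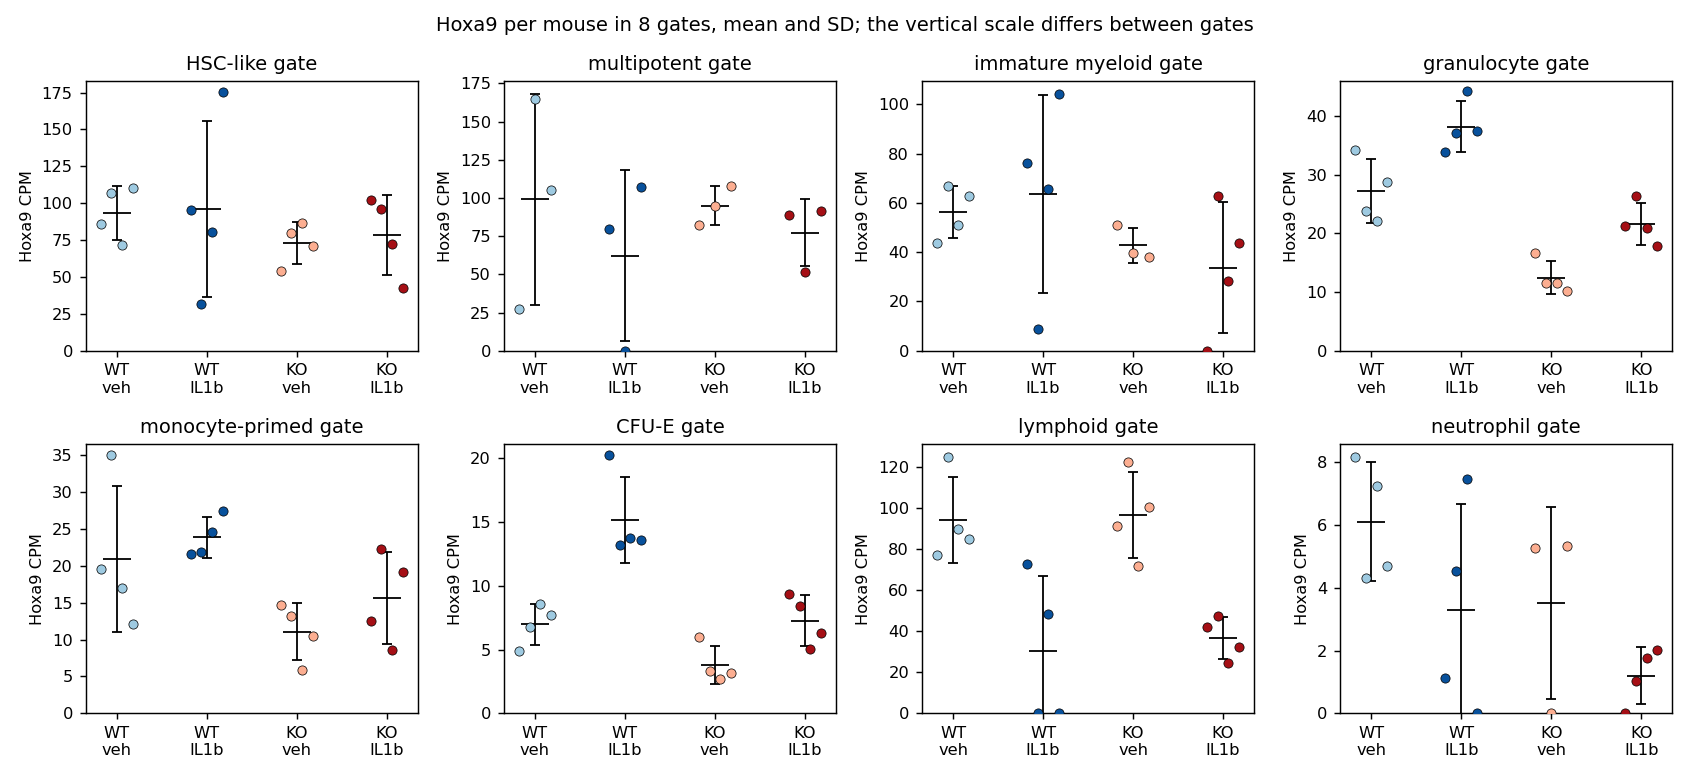
Hoxa9 level in CPM in 8 gates, on vertical axes that start at 0 and differ between gates; points are the mice with at least 10 cells in the gate, and bars give the mean and SD. In the granulocyte gate the Tet2-KO mice (10.1 to 16.7 CPM with vehicle, 17.8 to 26.4 with IL1β) lie below the WT mice of the same treatment (22.0 to 34.3 and 33.9 to 44.2).

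Hlf rose with IL1β in immature myeloid cells of Tet2-KO mice. It was at 94.1, 46.7 and 59.3 CPM in the 3 vehicle mice used and at 221.0, 149.0, 70.5 and 145.3 CPM with IL1β, an overlapping rise of 1.04 ± 0.30 (adjusted p = 0.026) where 11.5% of all genes were called. In the same mice the summed stem cell gate markers (247 to 486 against 489 to 559 CPM) and the endothelial markers, led by Pecam1 (72.4 to 106 against 113 to 177 CPM), were higher with IL1β without overlap, and their part was not tested. Vehicle mouse 2 was dropped for having 5 cells in the gate and read 288.1 CPM from 9 UMIs, above every IL1β mouse. In WT mice Hlf was at 31.9, 53.4, 91.2 and 71.3 CPM with vehicle and at 81.8, 60.3, 45.1 and 83.4 CPM with IL1β, and the interaction was 1.11 ± 0.46 (adjusted p = 1.00). The Tet2-KO call was lost without vehicle mouse 3 or 4 or IL1β mouse 1 or 2 (adjusted p up to 0.15). It was also lost without the mice with few HSC-like cells (0.94, adjusted p = 0.073), with at least 4 stem cell markers, with the block by mouse number and without the cells with the most UMIs (0.74 to 1.03, adjusted p up to 0.093).

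In granulocyte progenitors Hlf was at 12.2, 7.55, 12.0 and 14.3 CPM in WT vehicle and 17.4, 17.2, 24.9 and 25.8 CPM in WT IL1β mice, and at 11.2, 12.4, 7.19 and 5.22 against 19.4, 16.1, 14.8 and 13.3 CPM in Tet2-KO mice. Neither genotype's treatment groups overlapped, and Hlf rose by 0.56 ± 0.20 in WT and 0.63 ± 0.19 in Tet2-KO (adjusted p = 0.043 and 0.015). The lack of overlap was not particular to Hlf. Mecom, Meis1, Erg, Mllt3, Runx1 and Etv6 in WT, and Hoxa9 and Etv6 in Tet2-KO, were also higher without overlap. The share of all genes without overlap was not counted. In this gate IL1β was called for 26.2% of all genes in WT and 36.5% in Tet2-KO, beside 2 of 9 and 3 of 9 members, shares that were no higher than this background. Group means in neutrophils were 11.9 and 17.2 CPM in WT and 9.64 and 15.8 CPM in Tet2-KO mice with vehicle and IL1β, beside 11.5, 21.3, 9.01 and 15.9 CPM in granulocyte progenitors. The ranges of the gates overlapped in every group. The WT call was lost without WT vehicle mouse 1, 2 or 3, WT IL1β mouse 3 or 4 or Tet2-KO IL1β mouse 3 (adjusted p up to 0.13), and the Tet2-KO call without Tet2-KO vehicle mouse 3 or 4 (up to 0.061). Both calls were lost with pools as replicates (adjusted p = 0.15 and 0.081) and without the mice with few HSC-like cells (0.50 and 0.55, adjusted p = 0.15 and 0.052). The WT call was also lost with either replicate block, mice assigned by the ratio of hashtag counts (the hashtag ratio), or the cells with the most UMIs (the deepest cells) left out (up to 0.074). Hlf in neutrophils also ran higher with IL1β, at 8.60 to 14.5 against 10.2 to 24.0 CPM in WT and 5.33 to 14.7 against 6.79 to 20.9 CPM in Tet2-KO. Mecom was at 1.40, 0, 2.31 and 0.25 CPM in WT vehicle and 2.38, 3.49, 5.34 and 4.04 CPM in WT IL1β granulocyte progenitors, a rise of 1.41 ± 0.50 (adjusted p = 0.029) that was lost without WT vehicle mouse 1 or 4 or WT IL1β mouse 3, where it ran from 0.94 to 2.28 over all mice left out. It was also lost with the hashtag ratio, with pools as replicates and without the mice with few HSC-like cells (1.27, adjusted p = 0.12). Prdm16 fell by 1.12 on the log2 scale (SE 0.41, adjusted p = 0.037) with IL1β in Tet2-KO granulocyte progenitors, from 0.91 to 2.38 CPM to 0.37 to 1.11 CPM, and this call was lost without Tet2-KO vehicle mouse 4 or IL1β mouse 1 or 3, and in 7 of 12 other alternatives, DESeq2, total UMI scaling and leaving out the mice with few HSC-like cells (-0.97, adjusted p = 0.093) among them.

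Runx1 rose with IL1β in WT CFU-E cells as well as in the HSC-like gate. It was at 51.6, 57.2, 70.6 and 74.2 CPM with vehicle and at 80.5, 89.2, 88.2 and 118.4 CPM with IL1β, a rise of 0.37 ± 0.12 (adjusted p = 0.030) without overlap, beside a shift of the median of all genes by 0.15 under total UMI scaling. In Tet2-KO mice the values were 68.3, 65.7, 54.4 and 49.6 CPM with vehicle and 71.7, 65.0, 70.4 and 73.7 CPM with IL1β. The WT call was lost without WT vehicle mouse 1 or 2 or WT IL1β mouse 2 or 4 (adjusted p up to 0.15). It was lost as well without the mice with few HSC-like cells (0.22, adjusted p = 0.33), with the hashtag ratio, with pools as replicates and without the deepest cells (0.26 to 0.31, adjusted p up to 0.17). In the megakaryocyte gate Runx1 was at 227.8, 211.8, 260.6 and 252.9 CPM in WT vehicle and at 318.8, 391.1, 379.2 and 312.2 CPM in WT IL1β mice, values that did not overlap, yet the change of 0.42 ± 0.15 did not pass (adjusted p = 0.10).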

How the data were processed

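Lineage-depleted bone marrow of 16 mice was measured by droplet single-cell RNA-seq with hashtags, as 8 libraries of 2 mice. Per the labels, the authors mapped reads to mm10 with Cell Ranger 3.1.0 and worked in Seurat 3.2.3; they deposited raw UMI counts per gene and cell, and hashtag counts per cell, which are used here as deposited. Cells with at least 750 genes and at most 10% mitochondrial UMIs were kept, and mice were called with HTODemux (Seurat 5.3.0), cells with 2 hashtags or none being left out, which also removed doublets between mice. Doublets within a mouse were not called. Gates were set on raw UMIs of marker genes, and a cell that met more than 1 gate was left out.

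UMI counts were summed per mouse and gate, with at least 10 cells. Tests used edgeR 4.0.16 (R 4.3.3) with TMM factors, a quasi-likelihood fit over all groups of a gate and Benjamini-Hochberg adjustment over all genes tested. Gradients compared gates within the mouse. Levels are UMIs of a gene per 1000000 UMIs of the same mouse and gate (CPM), and likeness used log2(CPM + 1). Levels were compared within a gene only. Depth was 28129 to 570433 UMIs per mouse in the HSC-like gate. Limits for a count of 0 use 3 counts. Nothing in the labels ties mice to litters or days beyond their pool. The main p-values treat mice as independent replicates, with no term for the pool. Mice that share a pool may vary together, and these p-values do not allow for that. Fits with pools as replicates are given among the alternatives. Same-numbered mice did not deviate together, so no block was used.

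Named genes are the members, and list genes called for IL1β or genotype in the HSC-like gate; others are named as examples of their list. The members and lists were chosen with earlier results of these data known. Alternatives were DESeq2 1.42.0, RLE factors, no filter, blocks, other marker numbers, a hashtag ratio, pools as replicates, deep cells left out and each mouse left out. A depth-scaled cap on committed markers, total UMI scaling and a minimum of 20 HSC-like cells were chosen after seeing the data. The scripts were tested on simulated counts. Promoters came from RefSeq (GRCm38.p6). Results for 1 withheld item are not reported here.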

Additional observations from a re-analysis of the deposited data

Results flagged for a closer look

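In 68 groups of 4 mice examined for a mouse far from the other 3, 2 values stood apart, where chance gives about 1 in 20. Mllt3 in the HSC-like gate was 0 CPM in WT IL1β mouse 2, below the next mouse at 108.0 CPM. That mouse had 11 HSC-like cells, and its count of 0 allows up to 95.8 CPM. Hoxa9 in the CFU-E gate was 20.2 CPM in WT IL1β mouse 1, above the next at 13.8 CPM. The rise of Hoxa9 with IL1β in WT CFU-E cells was still called without that mouse.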

How the results depend on the processing

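The gradient gave 57 calls, 55 to 63 under the alternatives and 56 to 58 with 1 mouse left out. IL1β in the WT HSC-like gate gave 1 call (Runx1), and 0 without the filter on low counts, with at least 4 stem cell markers, with pools as replicates and with at least 20 HSC-like cells; leaving out 1 mouse gave 0 to 1. Within progenitor gates there were 11 calls, 7 with a replicate block by mouse number, 7 without the cells with the most UMIs, 4 with pools as replicates, 19 with total UMIs and 3 with at least 20 HSC-like cells; leaving out 1 mouse gave 6 to 12, and the count fell below 8 without WT vehicle mouse 1, Tet2-KO vehicle mouse 4 or Tet2-KO IL1β mouse 1. The IL1β change of the WT gradient gave 1 call, 3 with pools as replicates and 0 in DESeq2, with RLE factors, with at least 4 stem cell markers, with the depth-scaled cap and with at least 20 HSC-like cells; leaving out 1 mouse gave 0 to 1. The other comparisons stayed at 0 calls in every alternative run. Of the values of single genes that were followed, 3072 kept their direction and their side of the threshold, 128 lost their call and 6, all Gata2 in Tet2-KO, gained one. This tally left out member and gate pairs called only under an alternative, such as those added with total UMIs or with pools as replicates. The cause was not tested.

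The replicate block by mouse number pairs mice that share only a number: their deviations correlated by -0.010 to 0.036 on average, and 7 of 16 mice correlated best with their own number. With it, the Runx1 change in the WT HSC-like gate was 0.73 (adjusted p = 0.038, edgeR). Total UMI scaling, the depth-scaled cap and the 20-cell minimum were chosen after seeing the data. Depth limits Prdm16 most, with 70 UMIs in all HSC-like cells.

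All values that had passed the threshold kept their direction in every alternative run. Among the followed values that had not passed, all in the HSC-like gate, 69 changed sign, none of them past the threshold. For the IL1β change in WT, Erg was 0.0048 with at least 2 markers. Hoxa9 was 0.038 with total UMIs. Mecom was -0.044 with the hashtag ratio. With 1 mouse left out, this IL1β change in WT ran from -0.26 to 0.14 for Hoxa9. For the IL1β change in Tet2-KO, Hoxa9 was 0.20 with at least 4 markers, 0.0053 with the hashtag ratio, 0.16 with pools and 0.061 with total UMIs. Mecom was -0.060 with at least 4 markers. Meis1 was 0.019 in DESeq2, 0.0053 with RLE factors, 0.061 with at least 4 markers, 0.0027 with pools, 0.016 without the deepest cells, 0.12 with the depth-scaled cap, 0.070 with total UMIs and 0.028 with at least 20 cells. Mllt3 was -0.066 with at least 4 markers. With 1 mouse left out, this IL1β change in Tet2-KO ran from -0.020 to 0.18 for Etv6, -0.35 to 0.18 for Hoxa9 and -0.13 to 0.028 for Meis1. For the genotype difference with vehicle, Erg was 0.29 with at least 4 markers and 0.044 with the hashtag ratio. Hlf was 0.067 with at least 2 markers. Meis1 was -0.11 with at least 4 markers and -0.038 with the depth-scaled cap. With 1 mouse left out, this genotype difference with vehicle ran from -0.20 to 0.066 for Erg and -0.22 to 0.040 for Hlf. For the genotype difference with IL1β, Etv6 was -0.19 with at least 4 markers. Hoxa9 was 0.043 with at least 2 markers, 0.23 with the hashtag ratio and 0.082 with pools. Mecom was 0.067 with at least 2 markers, 0.38 with the hashtag ratio and 0.13 with pools. Mllt3 was -0.46 with at least 4 markers, -0.071 with at least 2 markers, -0.0079 with total UMIs and -0.21 with at least 20 cells. Runx1 was -0.077 with the hashtag ratio and -0.026 with total UMIs. With 1 mouse left out, this genotype difference with IL1β ran from -0.043 to 0.17 for Etv6, -0.26 to 0.030 for Mecom, -0.10 to 0.21 for Mllt3 and -0.10 to 0.13 for Runx1. For the interaction, Etv6 was 6.7e-05 with at least 2 markers and 0.13 with the depth-scaled cap. Hoxa9 was -0.076 with the replicate block by mouse number. Mecom was -0.46 with at least 4 markers and -0.071 with at least 20 cells. Mllt3 was 0.027 with the hashtag ratio. With 1 mouse left out, this interaction ran from -0.25 to 0.0063 for Etv6, -0.27 to 0.27 for Hoxa9 and -0.12 to 0.24 for Mecom.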
